A study of Mus musculus with 6 samples.

Results

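The 10 genes followed here are switched on or raised in thymocytes when the T cell receptor is engaged. The surface and membrane genes are Cd69, Cd5, Cd6, Cd53 and Itm2a, and the nuclear genes are Egr1, Egr2, Egr3, Nr4a1 and Nr4a3. They were found by symbol in a table of 37867 gene models with positions in the mouse genome build mm9. Each of the 10 symbols matched 1 model, and all 10 were among the 13834 models that the authors tested. The table compares CD4+CD8+ double-positive thymocytes of C57bl6 mice that lack the microRNA pair mir181a1/b1 with those of wild type mice of the same strain label, in 3 sorted populations per genotype. The labels give no age, and they do not say whether the deletion is confined to a cell type or whether each population is a separate mouse, so p-values may measure a technical spread only. Each genotype has 1 pooled value per gene, in FPKM (fragments scaled by transcript length and library size), so no SD can be given, and the depth of the libraries is unknown.

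Double-positive thymocytes carry both coreceptors and are tested on their newly assembled T cell receptor. A weak engagement with self peptide and MHC starts calcium and ERK signals that lead to survival and positive selection, and the signals leave a transcriptional trace. EGR zinc finger factors are induced through ERK, NR4A orphan nuclear receptors follow the strength of the signal, CD69 appears on the surface of cells that have just been signalled, and CD5 is set in proportion to the signal and dampens it. The miR-181 family is abundant at this stage and is known as a modulator of receptor sensitivity, and Cd69 is among its reported targets.

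The microRNAs removed in the knockout are shown first because the letters in capitals, the seed at bases 2 to 8, are what pairs with a target. The sequences are from RefSeq (GRCm38.p6), and both mature sequences lie on chromosome 1, at chr1:137966468-137966490 and chr1:137966650-137966673, on the plus strand.
miR-181a-5p: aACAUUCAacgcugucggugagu
miR-181b-5p: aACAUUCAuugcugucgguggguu
The same seed is carried by the mature miR-181c-5p and miR-181d-5p, and the same mature miR-181a-5p and miR-181b-5p are also made from another gene pair on chromosome 2. The labels name none of these as deleted.

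Matches to that seed were searched in the 3′ UTR of 1 reference transcript per gene (GENCODE M21, GRCm38). The search used TGAATGT (bases 2 to 8), TGAATGTA (the same followed by A, called an 8mer) and GAATGTA (bases 2 to 7 followed by A). A match was found in 5 of the 10 genes and none in the other 5, Cd5, Cd6, Cd53, Egr2 and Nr4a1. Over 20633 coding genes with a 3′ UTR, 19.2% held a match of any kind and 4.66% an 8mer. The 4 matches that pair with the whole seed are shown with 10 bases on each side, the match in capitals.
Cd69 (chr6:129267853-129267880, minus strand): taggaagagcTGAATGTAggtacaggaa
Egr3 (chr14:70081534-70081561, plus strand): cagtcttgacTGAATGTAtccttcctat
Nr4a3 (chr4:48085132-48085158, plus strand): tcaaaaacttTGAATGTcaaactgatg
Itm2a (chrX:107397601-107397627, minus strand): gaaagcagcaTGAATGTgtcatcttac
Cd69 and Egr3 hold an 8mer, Nr4a3 and Itm2a a match to the seed without the final A, and Egr1 holds only the shorter match. Longer 3′ UTRs hold a match more often: among those within 80 to 120% of the length of the Egr3 3′ UTR (2645 bases) 9.27% held an 8mer, against 3.67% at the length of the Cd69 3′ UTR (936 bases). A match is a description of letters and not evidence of binding.

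The cells carried the transcripts of their labelled stage. The 12 double-positive markers were all tested and summed to 6251 FPKM in knockout and 6925 FPKM in wild type cells, and of these only Ptcra, whose product pairs with the beta chain before the alpha chain is made, passed the threshold, as lower. Markers of other cells summed to little: 4.93 against 9.22 FPKM for 8 myeloid genes, 0.985 against 2.44 FPKM for 7 stromal genes, of which Pdgfra is listed at 0 in both genotypes and Foxn1 in the knockout, 0.945 against 0.542 FPKM for 4 genes of gamma-delta T cells, and 0.670 against 1.35 FPKM for 3 red cell genes. Epcam alone, at 0.932 against 2.30 FPKM, made up most of the stromal sum in both genotypes. In these lists the myeloid Itgam and the epithelial Epcam were called lower, and Blk, a kinase of B cells and some gamma-delta T cells, was called higher at 0.639 against 0.191 FPKM (q = 0.0456, from the authors' deposited table). Of 6 B cell genes 5 stood under 1 FPKM in both genotypes, while Cd79b stood at 15.7 against 20.1 FPKM. Of the markers of mature single-positive cells, Zbtb7b, Klf2 and S1pr1 stood under 1 FPKM in both genotypes. Itgb7, Runx3, Ccr7 and Il7r stood at 4.99, 2.60, 3.20 and 1.03 FPKM in knockout and 6.32, 3.73, 3.04 and 0.803 FPKM in wild type cells, and these 7 together summed to 13.1 against 15.3 FPKM. The 5 markers of the preceding double-negative stage summed to 34.3 against 9.91 FPKM. In that list Il2ra was called higher, at 29.4 against 2.89 FPKM, while Notch3 at 4.51 against 6.25 FPKM and Kit at 0.370 against 0.672 FPKM were lower in level and not called. The part of these markers in the results below was not tested. In RNA of a whole sorted population, fewer cells with a transcript and less of it per cell cannot be told apart.

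Of the 10 genes, Cd53 rose in the knockout, Cd5 and Egr1 fell, and 7 did not pass the threshold of 0.05 on the q of the authors' deposited table. Over all tested models that table called 1.79% higher and 15.3% lower, so 2 lower of 10 is near the background share. Of the 10 log2 ratios of knockout over wild type, 8 were negative and 2, those of Cd53 and Cd69, were positive. Their median was -0.40, against -0.17 for all tested models. Every error below is a standard error derived from the log2 ratio and the deposited test statistic, and is called implied. The way that statistic was computed, not given in the sources used here, decides whether it measures a spread between the populations.

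**Figure D1:**
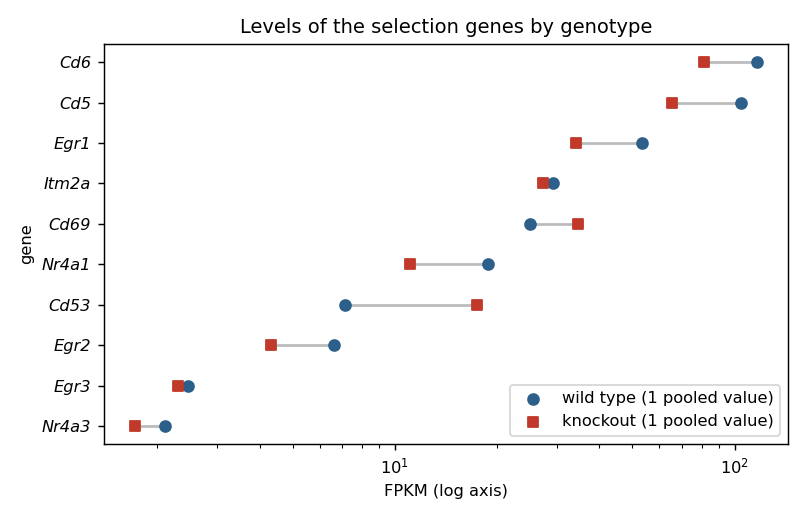
FPKM (log axis) of each of the 10 genes, with 1 pooled value for the knockout (squares) and 1 for the wild type (circles), ordered by the wild type level. Cd6 and Cd5 are highest in both genotypes, Nr4a3 is lowest, and Cd53 and Cd69 are the genes whose knockout value lies to the right of the wild type value.

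Per unit of length, the surface genes were mostly the more abundant. In the wild type the order of levels in FPKM was Cd6, Cd5, Egr1, Itm2a, Cd69, Nr4a1, Cd53, Egr2, Egr3 and Nr4a3. In the knockout Cd69 moved from the fifth to the third place, Cd53 from the seventh to the sixth, and the first 2 and last 3 places were held by the same genes. With 1 value per genotype, whether neighbours in either order differ beyond their spread cannot be said. The 5 surface genes summed to 226 FPKM in knockout and 283 FPKM in wild type cells, and the 5 nuclear genes to 53.5 and 83.3 FPKM. The sum over all tested models was also lower in the knockout, at 295333 against 358124 FPKM.

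Cd53 encodes a tetraspanin, a protein with 4 passes through the membrane that organises receptors in leukocytes. Knockout cells held 17.5 FPKM and wild type cells 7.12 FPKM, the ratio furthest from 1 among the 10 genes. The knockout was 2.46-fold higher, a log2 ratio of 1.30 with an implied standard error of 0.29, and the authors' deposited table gives a q of 0.000145. Its ratio lay at percentile 98.7 of all tested models. The model lies on chromosome 3 from 106562850 to 106592970 (mm9). Its 3′ UTR of 883 bases holds no match to the miR-181 seed.

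Cd69 encodes a C-type lectin that retains signalled thymocytes by removing the egress receptor S1PR1 from the surface. Knockout cells held 34.5 FPKM and wild type cells 25.0 FPKM, a log2 ratio of 0.46 with an implied standard error of 0.27. It did not pass the threshold (q = 0.260, from the authors' deposited table), and the 95% interval of the log2 ratio from the implied standard error ran from -0.06 to 0.99. That interval holds both no difference and almost a doubling. S1pr1 stood at 0.304 against 0.310 FPKM. The model for Cd69, on chromosome 6 from 129217342 to 129225387 (mm9), also carries the name AK089801.

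Cd5 and Cd6 encode related scavenger receptors of T cells that bind signalling proteins through their cytoplasmic tails, and both were lower in level in the knockout. Cd5 stood at 65.6 FPKM against 104.6 FPKM in the wild type, where it was 1.59-fold higher. The log2 ratio of -0.67 had an implied standard error of 0.23 (q = 0.0283, from the authors' deposited table). Cd6 stood at 81.5 against 116.7 FPKM, a log2 ratio of -0.52 with an implied standard error of 0.26, and did not pass the threshold (p = 0.0426 and q = 0.163, from the authors' deposited table). The 2 genes lie on chromosome 19 on either side of BC064125, Cd5 from 10792632 to 10813464 and Cd6 from 10863828 to 10904548 (mm9). The model between them stood at 3.70 against 4.01 FPKM (q = 0.916, from the authors' deposited table).

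Itm2a, an integral membrane protein gene induced in thymocytes during positive selection, differed least among the surface genes. Knockout cells held 27.3 FPKM and wild type cells 29.3 FPKM, a log2 ratio of -0.10 with a 95% interval from -0.61 to 0.40 (q = 0.885, from the authors' deposited table). Its model lies on chromosome X from 104592533 to 104598699 (mm9).

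Among the EGR factors, Egr1 was the most abundant and the one that passed the threshold. Knockout cells held 34.0 FPKM and wild type cells 53.3 FPKM, so that the wild type was 1.56-fold higher. The log2 ratio of -0.65 had an implied standard error of 0.24 (q = 0.0423, from the authors' deposited table). Egr2, which with Egr1 and Egr3 drives selection and the NKT lineage, stood at 4.33 against 6.62 FPKM. Its log2 ratio of -0.61 was of nearly the same size as that of Egr1, but with an implied standard error of 0.30 it did not pass (p = 0.0431 and q = 0.164, from the authors' deposited table). Egr3 stood at 2.30 against 2.45 FPKM, a log2 ratio of -0.09. Its 95% interval, from -1.08 to 0.89, covers the ratios of both other factors, so a difference of that size was not detectable in Egr3.

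Of the NR4A receptors, Nr4a1, which encodes Nur77 and is widely used as a reporter of receptor signalling, had the lowest ratio of the 10 genes. Knockout cells held 11.1 FPKM and wild type cells 18.9 FPKM, a log2 ratio of -0.76 with an implied standard error of 0.30. It did not pass the threshold (p = 0.0115 and q = 0.0625, from the authors' deposited table). Its model on chromosome 15, from 101083998 to 101111350 (mm9), shares its span with an antisense model, linc-Nr4a1-AS, at 0.349 against 0.229 FPKM. No source used here says whether the counting used strand, and without strand reads of the pair cannot be told apart. Nr4a3 (Nor1) was the lowest in level, at 1.72 against 2.10 FPKM, with a log2 ratio of -0.29 and a 95% interval from -1.38 to 0.80 (q = 0.832, from the authors' deposited table). Its model joins BC038520 and is listed over 223773 bases of chromosome 4, from 47882753 to 48106525 (mm9). Models named AK133250 are listed at the same positions with values of their own, at most 0.169 against 0.0802 FPKM. The Nr4a3 value may still include other transcripts, which was not tested.

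**Figure D2:**
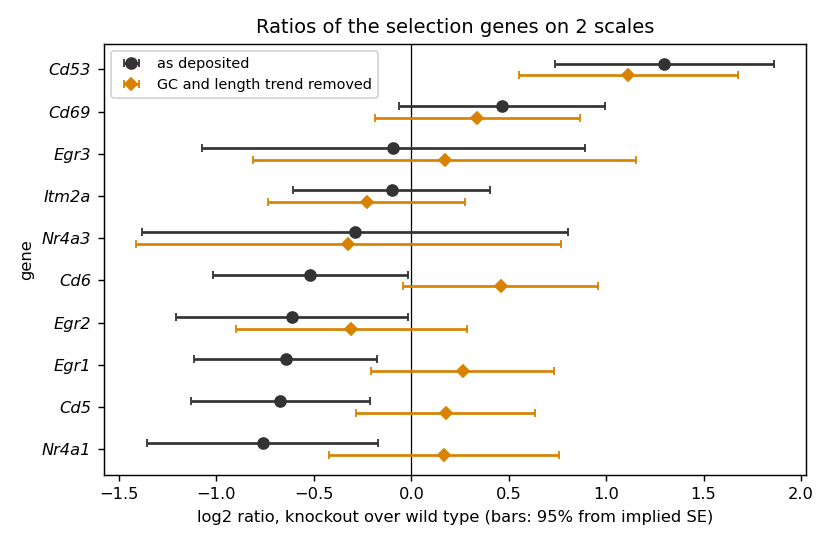
Log2 ratio of knockout over wild type for the 10 genes, as deposited (circles) and after a trend with transcript GC content and length was removed (diamonds), with 95% intervals from the implied standard error. The interval of Cd53 lies above 0 on both scales, while Cd5, Cd6, Egr1 and Nr4a1 lie left of 0 as deposited and right of 0 after the removal.

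The ratios of the 10 genes were ordered by the base composition of their transcripts. Cd53, Cd69 and Itm2a, at 40.0%, 41.5% and 41.7% GC, were in the lowest of 10 GC groups of coding genes and had ratios of 1.30, 0.46 and -0.10. Cd5, Nr4a1, Egr1 and Cd6, at 56.0% to 57.5% GC, were in the ninth group, and their ratios ran from -0.76 to -0.52. Nr4a3, Egr3 and Egr2, at 48.4% to 51.4% GC, lay in the fifth and sixth groups with ratios of -0.29, -0.09 and -0.61. Across the 10 genes Spearman's rho of the ratio with GC content was -0.806, a description over genes that share the same libraries. Over the 8869 tested genes with 1 coding symbol, a usable transcript and a mean over genotypes of at least 1 FPKM, it was -0.760. In the lowest GC group the median ratio of coding genes was 0.29, and 5.75% of them were called higher and 0.225% lower. In the ninth group the median was -0.91, with 51.4% called lower and 0 higher. Whether this trend is technical or belongs to the genotype was not tested.

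**Figure D3:**
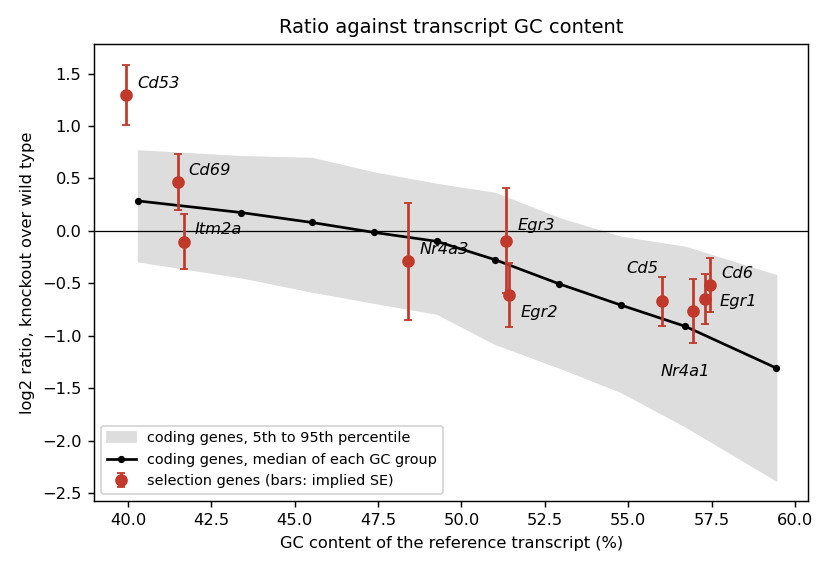
Log2 ratio of knockout over wild type against the GC content of the reference transcript, with the 10 genes as points (bars, implied standard error) and the coding genes as the median (line) and the 5th to 95th percentile (grey) of 10 groups. Cd53 lies just left of the start of the grey band and above the 95th percentile of its GC group (0.77), and the other 9 genes lie within the band.

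Once the trend with GC content and length was removed by a regression over the same 8869 genes, Cd53 was the only one of the 10 still called. Its value was 1.11 with an adjusted p of 0.0107 (Benjamini-Hochberg over the normal tails of the value divided by the implied standard error), at percentile 99.2 of the fitted genes. That fit called 0.947% of the genes higher and 0.992% lower. Cd5 went from -0.67 to 0.18 (adjusted p 0.966) and Egr1 from -0.65 to 0.26 (adjusted p 0.884). Cd6 turned to 0.46, Nr4a1 to 0.17 and Egr3 to 0.17. Cd69 went to 0.34, and Egr2, Nr4a3 and Itm2a stayed negative at -0.31, -0.32 and -0.23. The lowest adjusted p among these 7 was that of Cd6, 0.557. The SD of the 10 values went from 0.64 to 0.43, their median from -0.40 to 0.17, and 7 of 10 were positive. Of the markers called above, Ptcra, Itgam and Epcam went to -0.44, -0.84 and -0.82 and were no longer called. Il2ra stayed called as higher, at 3.19, and Blk had no value.

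Cd53 was called higher under each of the other call rules tried, while the calls of Cd5 and Egr1 changed with the rule. With q under 0.01 Cd53 was called higher and none lower, against 0.745% and 10.1% of all tested models. With q under 0.1 Nr4a1 joined Cd5 and Egr1 as lower and Cd53 was again the 1 higher, against 18.7% lower and 2.96% higher of all. With all ratios centred on the median, Cd53 was called higher and none lower, against 3.6% and 10.8%. Among the 11464 models with a mean of at least 1 FPKM, which hold all 10 genes, 2.03% were called higher and 17.8% lower.

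The promoter windows of Nr4a1 and Cd53, which had the lowest and the highest ratio of the 10 genes, differ in composition. Windows of 300 bases (250 before to 50 after the start, RefSeq, GRCm38.p6) were matched for 6 of the 10 genes, and those of Nr4a1 (chr15:101266596-101266895, plus strand) and Cd53 (chr3:106790100-106790399, minus strand) are shown, with matches to the searched motifs in capitals.
Nr4a1: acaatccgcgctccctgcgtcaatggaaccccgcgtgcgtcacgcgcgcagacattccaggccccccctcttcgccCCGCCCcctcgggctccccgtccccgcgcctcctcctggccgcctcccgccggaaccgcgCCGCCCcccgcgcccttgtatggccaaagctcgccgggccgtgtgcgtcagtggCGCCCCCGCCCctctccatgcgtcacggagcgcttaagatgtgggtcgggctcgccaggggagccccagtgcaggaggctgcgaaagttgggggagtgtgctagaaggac
Cd53: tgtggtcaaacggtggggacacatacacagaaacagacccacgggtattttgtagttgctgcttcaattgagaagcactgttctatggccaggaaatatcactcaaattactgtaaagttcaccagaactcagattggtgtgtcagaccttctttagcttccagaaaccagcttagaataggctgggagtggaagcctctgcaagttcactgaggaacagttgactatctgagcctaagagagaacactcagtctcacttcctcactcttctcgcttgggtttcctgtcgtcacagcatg
The motifs, on both strands, were the EGR site GCGNGGGCG, the GC box GGGCGG, the cyclic AMP element TGACGTCA, the AP-1 site TGANTCA, the NR4A site AAAGGTCA, the TATA box TATAAA, the CArG box and the MEF2 site. The Nr4a1 window, at 72.3% GC, held 3 GC boxes and 1 EGR site, which overlaps the third GC box. The Cd53 window, at 46.3% GC, held none of the 8 motifs, and neither did that of Cd5, which was called lower. The windows of Itm2a and Nr4a3 held 1 GC box each and no other motif, and those of Egr2 held 0 to 4 GC boxes. Among the other matched genes, the windows of Itm2a, Cd5 and Nr4a3 held 62.0%, 57.3% and 64.7% GC, and those of Egr2 56.0% to 72.0%. Whether the ratio goes with the GC content of the promoter was not tested. Of 32851 windows in the RefSeq table, 35.7% held a GC box and 5.55% an EGR site, and the median GC content was 52.7%. The 5 windows of Egr2 held 2 distinct CArG boxes, the site of serum response factor, and 1 of these lies in 3 windows that overlap. A CArG box was in 1.63% of all windows.

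Other genes listed as induced by receptor signalling moved in both directions. The list also holds Ccr7, S1pr1, Klf2, Il7r, Zbtb7b and Runx3, used above as markers of mature single-positive cells, and none of these was called. Its counts are therefore not those of induced genes alone. Of 68 listed genes 67 were matched and 62 tested, and among these 4 rose, 14 fell and 44 were not called (6.45% higher and 22.6% lower, against 1.79% and 15.3% of all tested models). Their median log2 ratio was -0.33. The genes that rose with the smallest p were Gzma, a granule protease, at 55.2 against 31.3 FPKM (q = 0.0170, from the authors' deposited table), Cd28, the costimulatory receptor, at 109 against 64.5 FPKM (q = 0.0178, from the authors' deposited table), and Irf4, a transcription factor graded by receptor signals, at 2.14 against 0.884 FPKM (q = 0.0196, from the authors' deposited table). With a pseudocount of 1 FPKM the log2 ratio of Irf4 went from 1.28 to 0.74. The model of Cd28 shares its span with Ctla4, so its value is less certain. Mcl1, a survival factor of the BCL-2 family, was the other that rose.

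The largest called fall in that list was that of Id3, an inhibitor of E proteins that EGR factors induce. Knockout cells held 6.57 FPKM and wild type cells 40.5 FPKM, a log2 ratio of -2.62 with an implied standard error of 0.36 (q = 9.46e-11, from the authors' deposited table). Id3 was also the only gene of the list called lower after the trend was removed, at -1.68 (adjusted p 0.000703). Socs1, an inhibitor of cytokine signalling, stood at 9.38 against 24.4 FPKM (q = 0.000309, from the authors' deposited table), and Nfkbia, the inhibitor of NF-kB, at 38.9 against 96.1 FPKM (q = 0.000444, from the authors' deposited table). After the removal, Socs1 and Nfkbia went to -0.23 and -0.74 and were not called. Also lower as deposited were the phosphatase genes Dusp1, Dusp2, Dusp4 and Dusp5, the AP-1 subunits Fos and Junb, and Myc, Arc, Socs3, Irf8 and Tnfrsf18. Of the 47 genes with a value after the removal, 2 were called higher and 1 lower, against 0.947% and 0.992% of fitted genes. The median of the 47 was 0.17. Those called higher were Gzma at 1.06 and Jund, an AP-1 subunit, which turned from -0.60 to 1.47. As deposited Jund was not called (q = 0.0840, from the authors' deposited table). Its transcript, at 67.1% GC, is in the highest GC group, which runs from 57.9% to 71.3% with a median of 59.4%. The value of Jund after the removal thus rests on the sparse end of the fit and is less certain.

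**Figure D4:**
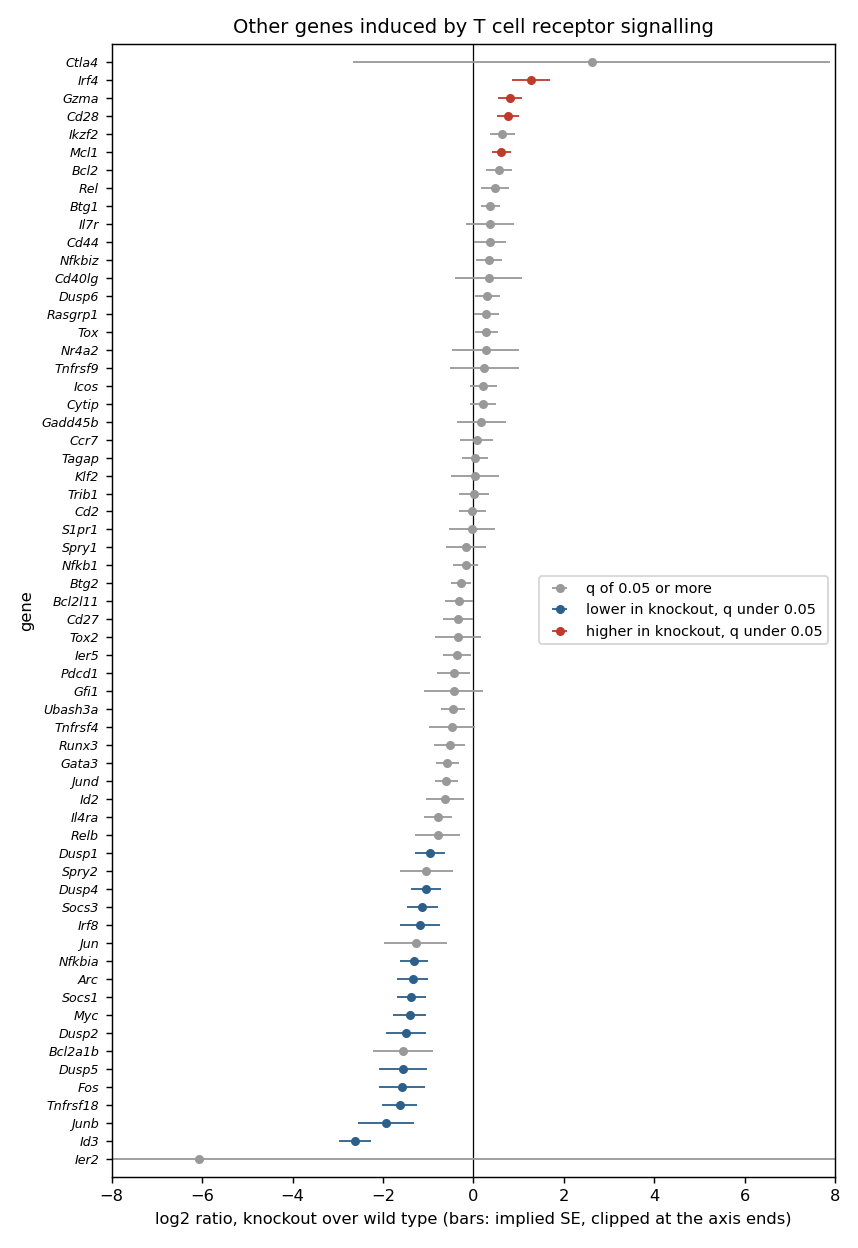
Log2 ratio of knockout over wild type of the 62 tested genes of the list of other receptor-induced genes, with the implied standard error as bars (clipped at the axis ends for Ier2). The 14 genes called lower (blue) include Id3 at the lowest called value, -2.62, and the 4 called higher (red) reach 1.28 at Irf4.

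Regulators upstream of the EGR and NR4A genes were in part lower. Of 20 listed genes 19 were tested, none rose and 5 fell (26.3% lower, against 15.3% of all tested models). Hdac7, a deacetylase that keeps Nr4a1 repressed in thymocytes, stood at 88.7 against 199.5 FPKM (q = 4.70e-05, from the authors' deposited table). Mef2d, a factor that binds the Nr4a1 promoter, stood at 45.8 against 103.6 FPKM (q = 0.00226, from the authors' deposited table), and Srf, the serum response factor, at 8.33 against 16.6 FPKM (q = 0.00241, from the authors' deposited table). All 3 transcripts are rich in GC, at 59.3% to 64.4%, and after the removal of the trend their values were -0.01, 0.22 and 0.77, none of them called. Mkl1 and Cabin1 were the other 2 that fell, and they went to 0.088 and -0.18 after the removal and were not called.

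Among 11 partners and targets of the EGR factors, of which 8 were tested, Id3 and Dgkz fell and none rose, 2 of 8 against a background of 15.3% lower. Dgkz, a kinase that removes diacylglycerol and limits Ras signalling, stood at 103 against 230 FPKM (q = 0.00219, from the authors' deposited table), and it was at 0.04 after the removal. The EGR corepressors did not pass, with Nab1 at a log2 ratio of 0.54 and Nab2 at 8.49 against 13.1 FPKM. Of 15 tested signalling partners of CD5, CD6, CD69 and CD53, none rose and 4 fell, Stat5b, Csnk2b, Ptpn6 and Lck (26.7% lower, against the same 15.3%). Ptpn6, the phosphatase SHP-1, stood at 58.2 against 97.7 FPKM (q = 0.0185, from the authors' deposited table), and Csnk2b, the regulatory subunit of the kinase CK2 that binds CD5, at 107 against 185 FPKM (q = 0.0135, from the authors' deposited table). Stat5b, a transcription factor of cytokine signalling, stood at 50.3 against 95.7 FPKM (q = 0.00102, from the authors' deposited table). None of these partners was called after the removal. Alcam, the ligand of CD6, was at 0.121 against 0.119 FPKM and was not tested.

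The relatives of the 10 genes moved in both directions. Cd53 rose, while the tetraspanins Cd81 and Cd37 fell, Cd81 from 65.4 FPKM in the wild type to 23.7 FPKM in the knockout (q = 2.74e-06, from the authors' deposited table) and Cd37 from 66.6 to 27.2 FPKM (q = 0.00117, from the authors' deposited table). With the trend removed Cd81 was still called, at -0.96 (adjusted p 0.0253), and Cd37 was not, at -0.19. Tspan13, Tspan32, Tspan3, Tspan14, Cd82 and Tspan6 did not pass, with log2 ratios of 0.53, -0.21, -0.68, -0.42, -0.15 and -0.37. Clec2d, a lectin gene of the same chromosome as Cd69, rose to 38.4 from 23.0 FPKM (q = 0.0335, from the authors' deposited table). It was not called after the trend was removed, at 0.86 (adjusted p 0.0591). Clec2i did not pass, at 32.8 against 23.6 FPKM. Its model shares its span with that of Klrb1b, Klrb1c and Klrb1d, so its value is less certain. Of the relatives of Itm2a, Itm2b stood at 290 against 314 FPKM (q = 0.828, from the authors' deposited table) and Itm2c fell to 13.5 from 25.1 FPKM (q = 0.0105, from the authors' deposited table). Egr4, listed at 0 in knockout and 0.0177 FPKM in wild type cells, was not tested, and Nr4a2 stood at 0.386 against 0.321 FPKM (q = 0.897, from the authors' deposited table). Of 19 tested relatives 1 rose, 4 fell, Tspan9 being the fourth, and 14 did not pass (5.26% higher and 21.1% lower, against 1.79% and 15.3% of all tested models).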

How the data were processed

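RNA of 6 libraries, 3 per genotype, was sequenced with the TruSeq RNA kit, per the labels' protocols. RNA was extracted with Trizol or a column kit, and the labels do not say which for which library. TopHat2 and the build mm9 are named in the submitters' processing notes, without versions. The tools for counting and testing were not given in the sources used here. Per the file headers, the authors deposited 1 FPKM value per genotype, a log2 ratio, a test statistic (a score), a p-value and a q-value, pooled over libraries, so no test over libraries was possible. Ratios were signed so that positive means higher in the knockout, and dividing each by its deposited statistic gave the implied standard error. The deposited q-values differ by at most 1.89e-06 from Benjamini-Hochberg values over the tested models.

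The trend was fitted with a Huber robust regression (statsmodels 0.14.6) on cubic splines, each with 5 pieces, of transcript GC content and log2 length (GENCODE M21). The fitting was also run on ratios simulated from the fitted trend. Such a run checks the computation and cannot show whether the trend or the implied standard error holds in the real data. For 79 tested models the transcript was longer than 1.2 times the model's span and was not used, and 9 fitted models lie on another chromosome than the transcript of their symbol and were kept. List genes had to lie on the chromosome of their symbol. Symbols absent from the table were looked up among RefSeq synonyms (GRCm38.p6).

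The 10 genes and the lists were chosen with earlier results of these data known, and 1 gene of the lists of receptor-induced and mature single-positive genes is not reported here and was left out of their counts. Named genes were all 10, up to 3 called genes per direction of each list by smallest p, and the 12 most abundant relatives. Other genes were named after their values were seen. Genes of like pattern were not sought, because 2 values give no pattern. Alternatives were the q threshold, centring, the trend, a minimum of 1 FPKM, pseudocounts of 1 and 0.1 FPKM and summed models.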

Additional observations from a re-analysis of the deposited data

How the results depend on the processing

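The 10 genes had 2 called lower as deposited, 0 at a threshold of 0.01, 0 after centring on the median of all tested models and 0 with the GC and length trend removed. Cd53 was the 1 gene called higher under every one of these. At a threshold of 0.1, Nr4a1 was also called lower. The median of the 10 turned from -0.40 to 0.17 with the trend removed. On the list of other receptor-induced genes, 4 were called higher as deposited, 0 at a threshold of 0.01 and 2 with the trend removed. Calls of lower numbered 14 as deposited, 8 at a threshold of 0.01 and 1 with the trend removed. The median of the list turned from -0.33 to 0.17. Fewer genes had a value with the trend removed, 47 of 62. Of all tested models, 15.3% were called lower as deposited, 10.1% at a threshold of 0.01, 18.7% at 0.1 and 10.8% after centring. The shares called higher were, in the same order, 1.79%, 0.745%, 2.96% and 3.6%. With the trend removed, 0.947% of the fitted genes were called higher and 0.992% lower.

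Among the 10 genes and the others named by the rule, directions that turned with the trend removed were those of Cd5 (0.18), Cd6 (0.46), Egr1 (0.26), Egr3 (0.17), Nr4a1 (0.17), Mef2d (0.22), Srf (0.77), Dgkz (0.039), Itm2c (0.067), Tspan32 (0.18), Tspan3 (0.10) and Cd82 (0.64). Of the genes named outside the rule, Jund (1.47), Nab2 (0.68), Mkl1 (0.088), Socs3 (0.016) and the markers Itgb7 (0.71), Notch3 (0.62), Cd79b (0.38) and Runx3 (0.24) turned too, and S1pr1 turned with centring (0.13). In the same set by the rule, directions that turned with centring, which shifts all ratios by 0.17, were those of Egr3 (0.073), Itm2a (0.064), Itm2b (0.050) and Cd82 (0.015). The cause was not tested. Pseudocounts of 1 and 0.1 FPKM, a minimum mean of 1 FPKM and summed models changed no direction of the 10 genes, and that minimum changed none of their calls.

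No paired analysis was possible because the table holds 1 pooled value per genotype, and leaving out a replicate was not run for the same reason. The depth behind the values is unknown, and Egr3 and Nr4a3 had the largest implied standard errors of the 10 genes, 0.50 and 0.56.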

Other observations

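Coding genes with a match to the miR-181 seed in the 3′ UTR had a higher median ratio than those without one. The median log2 ratio was 0.20 over 465 genes with an 8mer, 0.05 over 1005 with a full seed match alone, 0.04 over 404 with the shorter match and -0.35 over 6905 with none. The classes also differ in base composition, with a median GC content of 45.8% for the 8mer class and 51.2% for genes without a match. With the trend in GC content and length removed, the medians were 0.11, 0.03, 0.04 and -0.02. Against these, Cd69 and Egr3, which hold an 8mer, stood at 0.34 and 0.17, and Nr4a3 and Itm2a, with a full seed match, at -0.32 and -0.23. None of these 4 was called on either scale, and Cd53, which was, holds no match.

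Some neighbours of the 10 genes, chosen after their values were seen, had larger ratios than the genes themselves. Gpr174, a receptor gene 101887 bases from Itm2a, stood at 8.43 against 3.66 FPKM (q = 0.00182, from the authors' deposited table), where Itm2a had a log2 ratio of -0.10. On the 2 sides of Nr4a1, 9430023L20Rik stood at 5.27 against 20.7 FPKM (q = 7.67e-08, from the authors' deposited table) and Grasp at 0.541 against 1.73 FPKM (q = 0.00280, from the authors' deposited table). Tmem132a, next to Cd6, stood at 0.0249 against 0.341 FPKM (q = 0.0156, from the authors' deposited table). The tested models nearest on each side of Cd69, Cd5, Cd53, Egr1, Egr2, Egr3 and Nr4a3 did not pass the threshold. Nor did those on the other sides of Itm2a and Cd6. Of all tested models, 1.79% were called higher and 15.3% lower. Whether neighbours of the 10 genes are called more often than that was not tested, and their values with the trend removed are not given.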
